A study of Mus musculus with 2 samples.

Results

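Transcripts of membrane traffic were compared between day 0 ES cells and day 4 EB cells of the mouse. They were chosen by symbol alone: Rab GTPases with some of their regulators, Arf and Arl GTPases, Vps proteins, sorting nexins, syntaxins, VAMPs, SNAPs, Sec proteins, COPI and adaptor subunits, exocyst and TRAPP subunits, CHMP proteins, synaptotagmins, and Atg, Gabarap and Lamp genes. This gave 151 of the 8102 genes that could be named on the array. The rule uses no measured value, though it was proposed with earlier results of these data known. The symbol rule also took in 3 entries that are not trafficking proteins, the fucosyltransferase gene Sec1, the opposite-strand transcript Rab10os and the pseudogene Atg4a-ps; in neither array did any of the 3 reach the signal floor.

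Membrane traffic moves proteins and lipids between the compartments of a cell in vesicles. Coats such as COPII, COPI and clathrin with its adaptors bud a vesicle and select its cargo, Rab and Arf family GTPases mark membranes and recruit effectors, tethers catch the vesicle, and SNAREs fuse it with its target. Sorting nexins, retromer and ESCRT decide whether cargo in endosomes is recycled or degraded, and autophagy delivers cytoplasm to the lysosome. Most of this machinery is used in all cells, while some members serve regulated secretion in neurons and endocrine cells.

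The series holds 2 samples, each of total RNA on 1 bead array. The labels leave ES and EB as abbreviations, which in this field commonly mean embryonic stem cells and embryoid bodies, clusters of cells that differentiate together. The cell line, strain, medium and way of differentiation are not given in the sources used here. Since each group holds 1 sample, there was no replicate and no test, and every difference describes these 2 arrays. The column headers place both arrays on 1 chip in different positions, so position on the chip, culture and day cannot be told apart.

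Values are signals averaged over the beads of a probe, quantile normalized over both arrays. The signal floor, the lowest normalized signal of an EB probe with a detection score above 0.99, was 230.0. The deposited spread between beads gives each log2 difference a bead-level standard error, which leaves out biological variation and any difference between arrays. A median of 38 beads in ES and 37 in EB lay behind a signal. The labels were set beside fixed marker lists. These lists were chosen with earlier results of these data known, so they are no independent check. Of 10 measured genes of undifferentiated ES cells, 8 were at least 2-fold lower in EB, and their summed signal was 43446 in ES and 5050 in EB. All 8 measured genes of early differentiation were higher, with summed signals of 1803 and 10752; of these Gata4, below the floor in ES, can be given only as at least 1.97-fold higher. The summed signal of 6 neuronal and neuroendocrine genes was 1622 in ES and 1332 in EB; 4 of them were above the floor and Syn1 was lower past the 2-fold limit. Of 5 feeder fibroblast genes 2 were above the floor, Col1a1 lower and Fbln2 higher in EB, while Col1a2, Col3a1 and Dcn were under it in both arrays. The 3 epithelial genes had summed signals of 30454 and 25971, most of it from keratins, while Cldn4 had 3764 and 502 and was lower past 2-fold. Whether such cells had a part in the differences below was not tested.

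The comparison asked how trafficking transcripts differed between undifferentiated and differentiating cells. Most of the members above the floor differed little. Of the 151 members 94 (62.3%) were above the floor in at least 1 array, against 47.7% of all named genes, and 87 were above it in both. Of the 94 members, 0 were at least 2-fold higher in EB and 1 was at least 2-fold lower, the Arf-like GTPase gene Arl5c. Among all 3867 named genes above the floor 3.72% were higher and 5.35% lower by the same limit. At a 1.5-fold limit 7 members were higher (7.45%) and 4 lower (4.26%), where the shares over all genes were 12.4% and 12.0%. The other 83 members (88.3%) lay within 1.5-fold, against 75.6% of all genes. Of the 87 above the floor in both arrays 0 passed 2-fold in either direction (3.11% of such genes were higher and 4.04% lower), and 6 were higher and 3 lower past 1.5-fold (11.3% and 9.96%). From the signals of the authors' series value table, which stretches differences of dim probes, 5 members were higher and 5 lower past 2-fold, with 13.6% and 12.1% of all genes.

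The median log2 difference of the 94 members, EB minus ES, was 0.04 with quartiles of -0.13 and 0.27. Over all genes above the floor it was 0.06 with quartiles of -0.26 and 0.35. Over all 151 members, those under the floor included, the median was 0.03. The median size of the difference, without its sign, was 0.24 in members and 0.31 in all genes. Members were somewhat brighter than genes at large, with a median signal of 908 against 711. The smaller share of differences past 1.5-fold was seen at each level of signal: 12.1% against 25.3% of all genes at a mean signal under 500, 14.6% against 27.9% between 500 and 2000, and 5.0% against 16.8% over 2000. These are shares of 33, 41 and 20 members, and no test stands behind them. In bulk RNA, fewer cells of a type and less RNA per cell cannot be told apart.

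**Figure D1:**
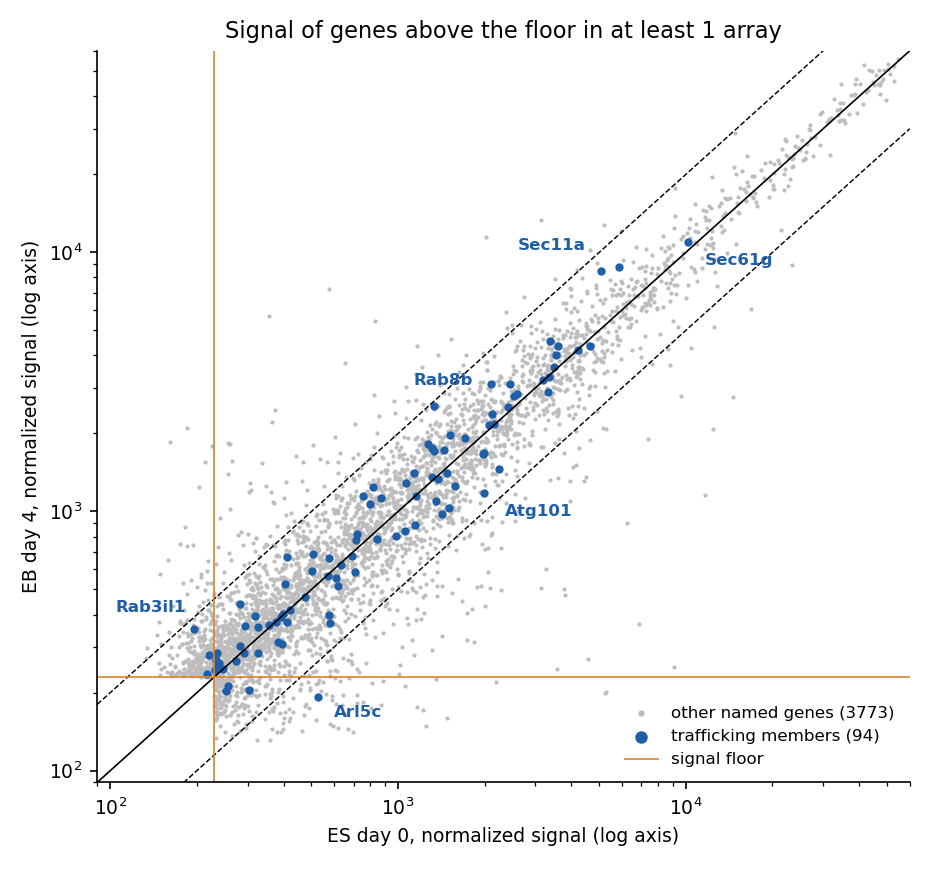
Normalized signal in ES day 0 (x axis) against EB day 4 (y axis), both log axes, for named genes above the floor in at least 1 array. Blue points are the 94 members and grey points the other 3773 genes, the solid line marks equal signals, dashed lines mark 2-fold and orange lines the signal floor of 230.0. Members lie close to the line of equal signals, with Arl5c outside the 2-fold lines.

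**Figure D2:**
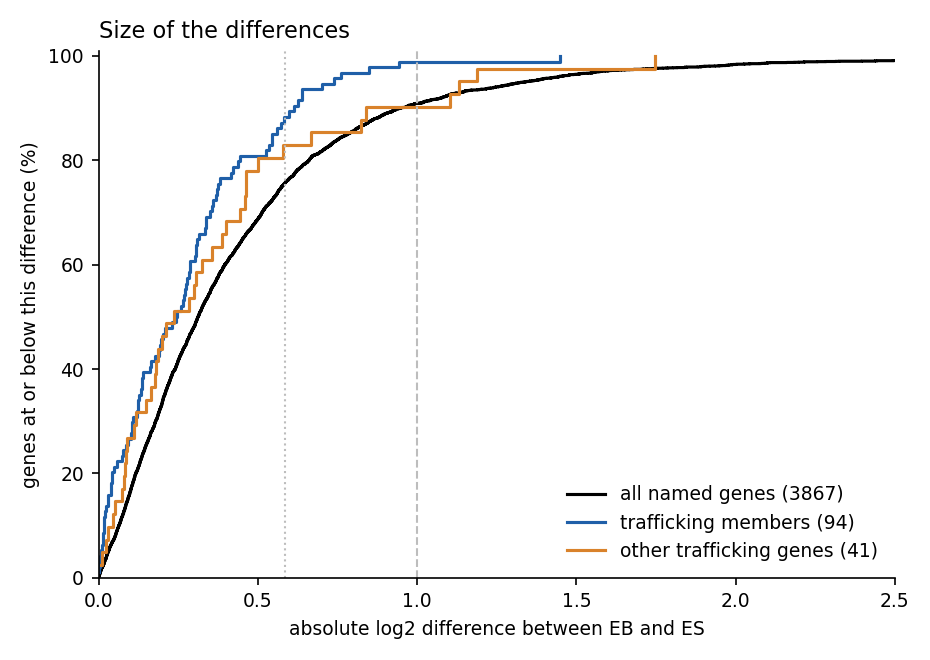
Share of genes (y axis, percent) whose absolute log2 difference between EB and ES is at or below the value on the x axis, for all 3867 named genes above the floor, the 94 members and 41 other trafficking genes; the x axis ends at 2.5. Dotted and dashed lines mark 1.5-fold and 2-fold. The members' curve reaches 88.3% at 1.5-fold, where that of all genes is at 75.6%.

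By bead error alone 53 of 94 members (56.4%) differed from 0 by at least 2 bead-level standard errors, 31 higher and 22 lower, against 68.3% of all genes. That error is narrow, and a wider yardstick is the disagreement between probes of a gene. Over 446 genes with 2 probes above the floor the log2 differences of both probes disagreed with a standard deviation of 0.393. The median size of that disagreement was 0.19 and the largest 1.78. Among members 10 genes had such a pair. Their standard deviation was 0.251 and 7 of the 10 pairs had the same sign, against 347 of the 446 over all genes. Of the 94 members 72 (76.6%) had a difference smaller than 0.393, against 59.6% of all genes.

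**Figure D3:**
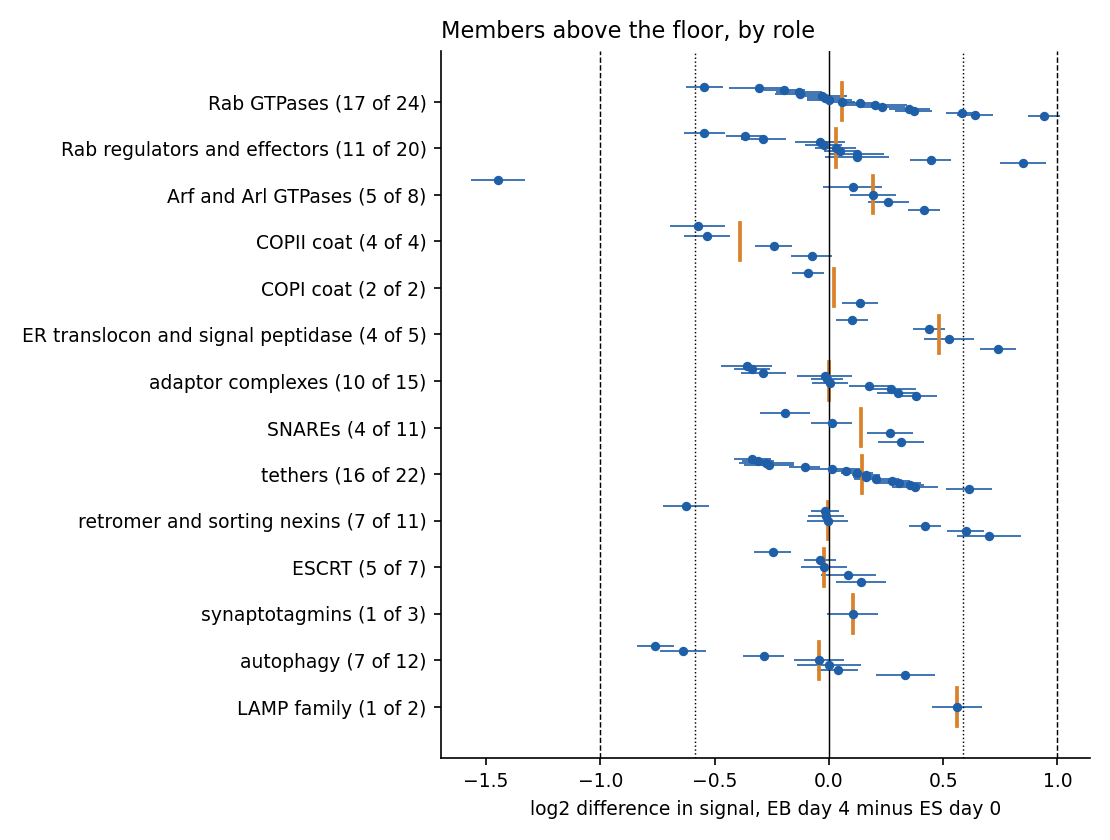
Log2 difference in signal, EB day 4 minus ES day 0 (x axis), of each member above the floor, by role; the counts beside each role give members above the floor of all members. Points carry bars of 1 bead-level standard error, orange marks are medians, and dotted and dashed lines mark 1.5-fold and 2-fold. Points of most roles straddle 0, while those of the COPII coat all lie below it and those of the ER translocon and signal peptidase all above it.

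Rab GTPases are switches that give each membrane its identity. Of 24 on the array 17 were above the floor, with a median of 0.06 and a range from -0.55 to 0.94. None passed 2-fold by the main processing, and 2 of the 17 were higher past 1.5-fold, where 12.4% of all genes were. With the series value table Rab11a (1.38) and Rab8b (1.05) were higher past 2-fold, where 13.6% of all genes were. Rab6b, under the floor in EB, was lower there (-1.22), where 12.1% were. Rab8b, which sends vesicles from the Golgi and recycling endosomes to the plasma membrane (identifier scl00235442.1_185-S), gave 1335 in ES and 2564 in EB. This was 1.92-fold higher, or 0.94 on the log2 scale (bead-level standard error 0.07). Its second probe was dim in both arrays (163 and 171, below the floor), so the difference rests on 1 probe. Rab8a, its paralogue, had signals of 500 and 587, a log2 difference of 0.23. The second probe of Rab8a gave -0.36, so that gene's probes disagreed in sign.

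The promoters of Rab8a and Rab8b are shown because the brighter probes of these close paralogues gave unlike differences, 0.23 and 0.94. By the mean over probes the differences were -0.07 for Rab8a and 0.50 for Rab8b. Each window runs from 250 bases before to 50 after the RefSeq transcript start on assembly GRCm38.p6, and capitals mark CCAAT boxes, the letters CCAAT or, on the other strand, ATTGG. Rab8a (chr8:72160950-72161249, plus strand) had 2 matches and 23 CpG dinucleotides. Rab8b (chr9:66919656-66919955, minus strand) had 1 match, on the strand opposite to the gene, and 24 CpG dinucleotides. A match of letters is a description and not a binding site.
Rab8a: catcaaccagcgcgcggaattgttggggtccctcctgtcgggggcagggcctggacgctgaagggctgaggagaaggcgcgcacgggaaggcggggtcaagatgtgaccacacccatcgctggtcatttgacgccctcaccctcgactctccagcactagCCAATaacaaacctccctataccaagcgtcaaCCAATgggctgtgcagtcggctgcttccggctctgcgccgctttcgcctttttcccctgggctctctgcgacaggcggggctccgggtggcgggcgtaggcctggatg
Rab8b: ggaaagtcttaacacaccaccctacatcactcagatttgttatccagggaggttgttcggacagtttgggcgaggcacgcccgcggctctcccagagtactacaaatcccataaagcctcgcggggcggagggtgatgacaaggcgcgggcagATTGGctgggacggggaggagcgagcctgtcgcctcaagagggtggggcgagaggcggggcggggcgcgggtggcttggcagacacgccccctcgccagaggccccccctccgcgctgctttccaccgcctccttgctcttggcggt

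Rab11a and Rab11b, both of recycling endosomes, had similar differences by the main processing, though not by the series value table. There the dim Rab11a gave 1.38 and the bright Rab11b 0.60. By the main processing Rab11a went from 281 in ES to 438 in EB and Rab11b from 5853 to 8767. These were log2 differences of 0.64 and 0.58, each with a bead-level standard error below 0.1. Rab4a, which drives fast recycling from early endosomes, had signals of 1500 and 1028, the most negative difference of the Rab genes at -0.55 (standard error 0.08), and its paralogue Rab4b gave -0.13. The recycling Rabs did not share a direction. Rab24, an atypical Rab linked to autophagy, had signals of 873 and 1129 (0.37), and Rab28 had 2442 and 3115 (0.35). Rab7, the Rab of late endosomes and lysosomes, had 3321 and 2901, and its 3 probes gave -0.20, -0.02 and 0.06. Rab35, also of recycling endosomes, was level at 3341 and 3299, as were Rab14 at 2077 and 2159, Rab9, which returns receptors from late endosomes to the Golgi, at 375 and 376, and Rab21 at 291 and 285. Rab12 (608 and 556), Rab22a (232 and 267) and Rab26 (326 and 359) differed by -0.13, 0.20 and 0.14. The second probe of Rab26, below the floor in both arrays, gave -0.19, and the mean of its probes was -0.03. Rab6b, with 252 in ES and an EB signal under the floor, can be given only as at least 1.09-fold lower.

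**Figure D4:**
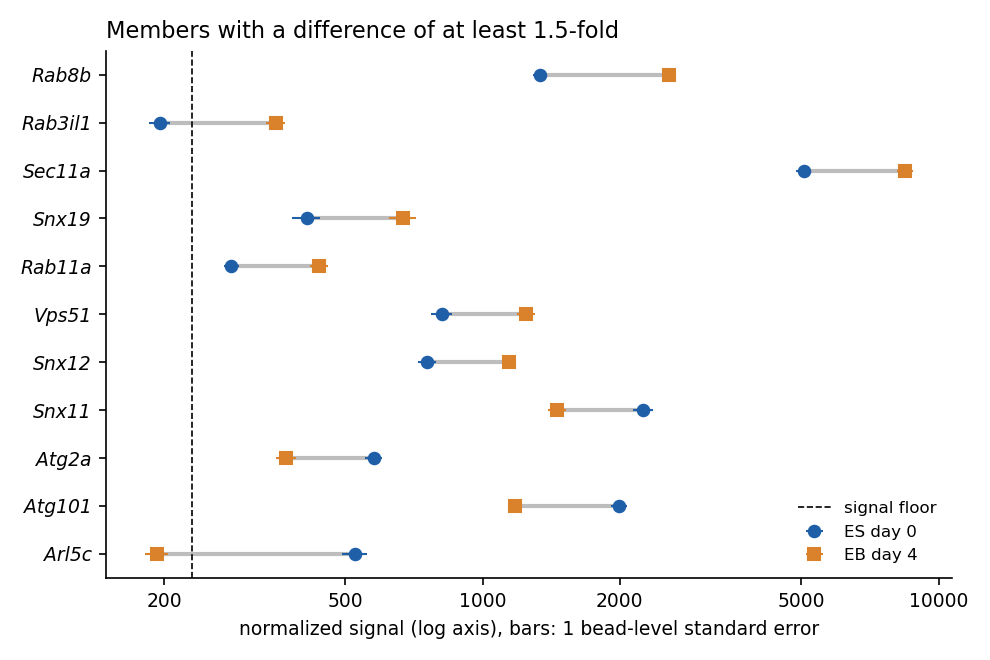
Normalized signal (x axis, log scale) of the 11 members with a difference of at least 1.5-fold, in ES day 0 (blue circles) and EB day 4 (orange squares), with bars of 1 bead-level standard error and the signal floor as a dashed line. In the upper 7 genes the EB signal is the higher, in the lower 4 the ES signal; Arl5c in EB and Rab3il1 in ES lie under the floor.

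Rab regulators switch the GTPases on and off, and effectors carry out their work. Of 20 such entries, Rab10os included, 11 were above the floor, with a median of 0.03. Rab3il1, an exchange factor that activates Rab3a and Rab8 proteins, gave 352 in EB and 196, under the floor, in ES. It was at least 1.53-fold higher, with a measured log2 difference of 0.85 (standard error 0.10), and passed 2-fold with normexp background correction (1.11). With that correction it was the 1 member higher, where 5.48% of all genes were, and Arl5c the 1 lower, where 6.85% were. Tbc1d17, of the family with a Rab GTPase-activating domain, had 505 and 687 (0.44). On the lower side were Rab3gap2, a subunit of the Rab3 GTPase-activating complex, with 1425 and 976 (-0.55), Tbc1d23, a bridge between golgins and vesicles, with 1141 and 884 (-0.37), and Rabep1, the Rab5 effector rabaptin-5, with 710 and 582 (-0.29). Rabgap1 (3490 and 3612), Tbc1d1 (356 and 363), Tbc1d20 (633 and 623) and Tbc1d22b (273 and 266) were nearly level, and Rab11fip4, an effector of Rab11, gave 0.12 (238 and 259). Tbc1d4, a regulator of glucose transporter traffic, was under the floor in ES and at 235 in EB. All 6 TBC1D genes above the floor, of 11, lay between -0.37 and 0.44.

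Arf and Arl GTPases recruit coats, golgins and motors. Of 8 genes 5 were above the floor. Arl5c, an Arf-like GTPase whose function is little described (identifier scl0217151.1_189-S), gave 525 in ES and 193, under the floor, in EB. It was at least 2.28-fold lower, and the measured signals differed by -1.45 on the log2 scale (bead-level standard error 0.12). Under the other ways of processing its difference ran from -3.85 to -1.19. Its relative Arl5a was under the floor in both arrays. The other 4 had small positive differences: Arl8b, which links lysosomes to kinesin, had 800 and 1067 (0.42), Arf5 had 1441 and 1724 (0.26), Arl1, which recruits golgins to the trans-Golgi, had 3525 and 4025 (0.19), and Arl4d gave 0.10.

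The ER translocon and signal peptidase bring new proteins into the secretory pathway. Of 5 of their genes 4 were above the floor, all with positive differences and a median of 0.48; of all 3867 genes 2140 were positive and 1720 negative, and no test stands behind the count. Sec11a, a catalytic subunit of the signal peptidase, gave 5067 in ES and 8456 in EB, 1.67-fold higher (0.74, standard error 0.08). Sec63, which couples the translocon to a luminal chaperone, had 1267 and 1825, and its 2 probes gave 0.53 and 0.57. Sec61b had 3365 and 4558 by its brighter probe (0.44), but 0.01 by the second. Sec61g, like Sec61b a small subunit of the channel, gave 0.10, within 2 bead-level standard errors of 0. Sec11a alone of the 4 passed 1.5-fold, where 12.4% of all genes were higher.

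All 4 COPII genes, whose coat buds vesicles from the ER, had negative differences. None of the 4 passed 1.5-fold, where 12.4% of all genes were higher and 12.0% lower. Of all 3867 genes above the floor 2140 were positive and 1720 negative, and no test stands behind the count. Sec23a of the inner coat had signals of 577 and 398 (-0.53, standard error 0.10). Sec24a, a cargo-binding subunit, had 304 in ES and 204, which is below the floor, in EB, and so was at least 1.32-fold lower. Its paralogue Sec24b had 1483 and 1407 (-0.08, within 2 bead-level standard errors of 0), and Sec16a, the scaffold of ER exit sites, 1977 and 1672 (-0.24). The COPII median was -0.39, or -0.24 over the 3 genes above the floor in both arrays. The signs of the 4 genes were the same under the other ways of processing, which reuse the same 2 arrays. Each of these genes has 1 probe. The mean over probes, signals set to the floor and the other detection rules therefore could not change a sign. Copa and Cope of the COPI coat, which returns proteins to the ER, gave 0.14 and -0.09; the 3 probes of Cope gave -0.09, -0.33 and -0.06.

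Adaptor complexes link cargo to clathrin and other coats. Of 15 subunits 10 were above the floor, and 5 were positive and 5 negative. None of the 10 passed 1.5-fold, where 12.4% of all genes were higher and 12.0% lower. The AP2 complex, which works in endocytosis at the plasma membrane, had all 4 measured subunits above the floor, and they did not share a direction: Ap2b1 had 1059 and 839 by its brightest probe (-0.34), Ap2a1 985 and 807 (-0.29), Ap2m1 2161 and 2169 (0.01) and Ap2s1 3598 and 4340 (0.27). The other 2 probes of Ap2b1 were below the floor in both arrays and gave 0.39 and 0.15, and the mean over its probes was 0.07. Of the AP1 complex, which sorts at the trans-Golgi and endosomes, Ap1b1 (-0.01) and Ap1g1 (-0.02) were level. Ap1m2, its medium subunit of epithelial cells, had 395 and 308, and both its probes were negative (-0.36 and -0.31). The AP3 subunits Ap3s1 and Ap3s2 gave 0.38 and 0.18, and Ap5z1 gave 0.30.

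Among the 11 retromer and sorting nexin genes, which retrieve cargo from endosomes, 7 were above the floor. Past 1.5-fold 2 were higher and 1 lower, where 12.4% and 12.0% of all genes were. Snx19 had 411 and 668 (0.70, standard error 0.14), Snx12 had 755 and 1143 (0.60), and Snx11 had 2249 and 1459 (-0.62). Vps29, a core retromer subunit, had 1314 and 1759 (0.42). Snx2, a partner of retromer, was level at 4231 and 4183, as were Snx25 and Snx30 (both -0.01).

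Tethers hold a vesicle at its target before fusion. Of 22 subunits 16 were above the floor, with a median of 0.14. The exocyst, which tethers vesicles at the plasma membrane, had 6 of 7 subunits above the floor, from -0.34 for Exoc1 (1583 and 1254) to 0.28 for Exoc7 (1065 and 1289). Exoc8 (2404 and 2531), Exoc3 (711 and 775) and Exoc6b (2126 and 2382) gave 0.07, 0.12 and 0.16, and Exoc6 was under the floor in EB. The 6 of 9 TRAPP subunits above the floor, which act between ER and Golgi, ran from -0.31 for Trappc8 to 0.35 for Trappc3 (1334 and 1705), whose second probe gave 0.39. Trappc2 (617 and 514), Trappc13 (846 and 785), Trappc12 (397 and 401) and Trappc6a (575 and 664) gave -0.26, -0.11, 0.01 and 0.21. A second probe of Trappc2, below the floor in both arrays, gave 0.27. The 4 of 5 Vps tether subunits above the floor ran from 0.16 to 0.61. Vps51 of the GARP complex, which tethers endosome vesicles at the trans-Golgi, had 815 and 1246 (0.61, standard error 0.10), and Vps53 of the same complex 1712 and 1916 (0.16). Vps8 and Vps18, of tethers of endosomes and lysosomes, gave 0.38 and 0.30.

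Most SNARE and synaptotagmin entries were under the floor in both arrays, but of all named genes too only 47.7% were above it in at least 1 array. Of 11 entries grouped here as SNAREs by symbol, among them Snap91, which encodes a clathrin assembly protein and no SNARE, 4 were above the floor, between -0.19 and 0.31. Stx8, a syntaxin of late endosomes, had 3194 and 3219, and its 2 probes gave 0.01 and -0.08. Stx6, of the trans-Golgi, gave 0.31, Stx17, of autophagosomes, 0.27, and Sec22c -0.19, where its second probe gave -0.23. Of 3 synaptotagmins, calcium sensors of secretion, Syt4 alone was above the floor, just over it (235 and 253), and its second probe gave -0.26 against 0.10.

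Autophagy delivers cytoplasm to the lysosome in a double-membrane vesicle, the autophagosome. Of 12 autophagy entries, the pseudogene Atg4a-ps included, 7 were above the floor. Past 1.5-fold 2 of the 7 were lower, where 12.0% of all genes were. Atg101, of the ULK kinase complex that starts autophagy, had 1991 in ES and 1176 in EB, 1.69-fold lower (-0.76, standard error 0.08). Atg13 of the same complex was level at 391 in both arrays. Atg2a, a lipid transfer protein of the growing autophagosome, had 578 and 371 (-0.64), and its paralogue Atg2b 692 and 671 (-0.04). Atg12, a ubiquitin-like conjugation protein, gave 0.04 and Atg16l2 -0.28. Atg9a was under the floor in ES and at 278 in EB, at least 1.21-fold higher. The 5 of 7 ESCRT genes above the floor, which bud vesicles into endosomes, lay between -0.25 for Chmp4b (1986 and 1675) and 0.14 for Chmp1a (2580 and 2842). Chmp1b (-0.04), Chmp5 (-0.02) and the ATPase gene Vps4b (0.09), which recycles the ESCRT filament, were nearly level. Lamp2, a major protein of the lysosome membrane, had 2111 and 3113 (0.56, standard error 0.11), 1.47-fold higher.

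Of 8 pairs of paralogues, 6 had both genes above the floor in both arrays. In 3 of the 6 the differences of the partners lay at least 2 bead-level standard errors apart: Rab8a and Rab8b (apart by 0.71 on the log2 scale, standard error 0.12), Rab4a and Rab4b (0.41) and Atg2a and Atg2b (0.60). Bead error leaves out disagreement between probes, which had a standard deviation of 0.393 over all genes with 2 probes above the floor. The 2 probes of Rab8a alone gave 0.23 and -0.36. Whether the partners differ beyond such disagreement was not tested. In the other 3 the second gene minus the first gave -0.06 (Rab11a and Rab11b), -0.18 (Chmp1a and Chmp1b) and -0.21 (Ap3s1 and Ap3s2). With the series value table Rab11a gave 1.38 and Rab11b 0.60, so the closeness of that pair depends on the processing. Sec24a and Exoc6 were below the floor in EB, so their distance from Sec24b and Exoc6b is not given.

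**Figure D5:**
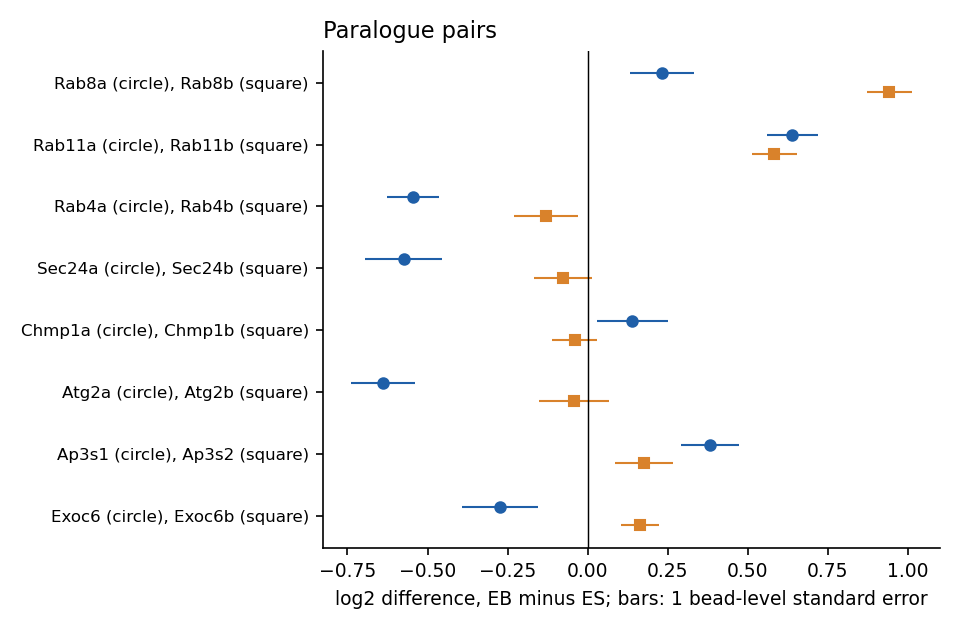
Log2 difference in signal, EB day 4 minus ES day 0 (x axis), of both genes of 8 paralogue pairs, with bars of 1 bead-level standard error. The partners lie apart in pairs such as Rab8a (0.23) and Rab8b (0.94) and close together in Rab11a (0.64) and Rab11b (0.58). With the series value table, not drawn, Rab11a gave 1.38 and Rab11b 0.60. Sec24a and Exoc6 have an EB signal below the floor.

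The 57 members under the floor in both arrays included genes of regulated secretion: Snap25 and Snap91 of the synapse, Rab3a and Rab27b of secretory granules, Syt1 and Ap3b2, the neuronal AP3 subunit. They also included genes used in most cells, such as Rab5a of early endosomes, Rab18, Vamp7, Stx12, Stx16, Sec62, Exoc5 and Atg3. A probe under the floor therefore gives only an upper bound and does not show that the transcript was lacking. Gabarapl2 was counted here by its brighter probe over both arrays, although its other probe was just over the floor in ES, at 230. Under the floor in both arrays no ratio is given.

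Genes of the same routes outside the symbol rule were read from a fixed list of 127, of which 57 were on the array by name and 41 above the floor. Their median was 0.09, and 2 were at least 2-fold higher and 2 lower (3.72% and 5.35% of all genes). By bead error 68.3% of the 41 lay at least 2 standard errors from 0, the same share as in all genes. Within 1.5-fold were 82.9%, against 75.6% of all genes. Cav1, the coat protein of caveolae, gave 609 in ES and 182, below the floor, in EB, and so was at least 2.65-fold lower. Rin1, an activator of Rab5, had 568 and 264, 2.15-fold lower (-1.10). Sort1, the sorting receptor sortilin, had 1403 and 3076 by its brighter probe (1.13), but its second probe gave 0.01. Arfgap2, which acts on Arf1 in the COPI cycle, had 618 and 1409 (1.19), and its other probes gave 0.58 and 0.64, so neither gene passed 2-fold by the mean of its probes. Under 2-fold, Ulk2, a kinase that starts autophagy, gave 0.84 and 0.71 by its 2 probes, Wipi2, which binds the autophagosome precursor, 0.83 (454 and 804), and M6pr, a mannose 6-phosphate receptor, 0.67 by a first probe and -0.03 by one under the floor. Cog8, of a Golgi tether, had 1442 and 965 (-0.58).

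RefSeq promoter windows were found for 126 members, in 154 windows of 300 bases. Their median content of CpG dinucleotides was 20.5, against 7 over all 32851 windows of the table. It was 21 for members above the floor, with a range from 1 to 43, and 18 for those under it in both arrays, with a range from 0 to 48. CCAAT boxes stood on either strand in 35.7% of member windows and 37.4% of all. The letters TCACGTGA, the core of the element bound by the lysosome and autophagy regulator TFEB and the same on both strands, were searched as well. They were in 7 member windows (4.55%) and in 0.974% of all windows. Among windows with at least 14 CpG dinucleotides the shares were 5.08% of 118 and 1.95% of 11920. The windows of the whole table cover 27025 genes and not only those named on the array. No test stands behind these shares. The 7 genes were Stx6, Rabgap1, Sec62, Rab21, Rab24, Atg3 and Rab5a, and the 4 above the floor differed by 0.31 (Stx6), 0.05 (Rabgap1), -0.03 (Rab21) and 0.37 (Rab24). The Rab24 window (chr13:55321931-55322230, minus strand, GRCm38.p6) is shown as an example, with the match in capitals.
Rab24: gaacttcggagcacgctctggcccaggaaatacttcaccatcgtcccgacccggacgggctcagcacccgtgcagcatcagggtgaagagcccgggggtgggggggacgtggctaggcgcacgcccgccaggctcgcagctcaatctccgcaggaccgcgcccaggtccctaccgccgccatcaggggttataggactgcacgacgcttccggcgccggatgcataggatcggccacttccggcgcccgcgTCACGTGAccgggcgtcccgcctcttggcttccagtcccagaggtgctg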

How the data were processed

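Total RNA of 2 samples, ES at day 0 and EB at day 4, was measured on bead arrays with 46643 probes. Per the file headers the deposited signal intensity is the mean over the beads of a probe, exported by BeadStudio 2.3.41 under a setting of no normalization. RMA, limma and BeadStudio 2 stand in the submitters' processing notes with no role given. The deposited detection score was read in the EB file. The deposited bead spread fell with bead number with a log-log slope of -0.43 in ES and -0.47 in EB (signals from 1000 up). A standard error would give -0.5, and it was read as one. The sources used here do not say how the authors made the intensity of the series value table.

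Intensities were quantile normalized and put on the log2 scale (pandas 2.3.3, numpy 2.4.6), without background subtraction, which shrinks differences of dim probes. Zero-padded numbers of at least 10000 inside target identifiers were taken for NCBI gene IDs and matched to RefSeq symbols (assembly GRCm38.p6, names only): 9796 of 11857 probes (82.6%) matched. The probe with the highest mean log2 signal stood for a gene. A gene was above the floor at a normalized signal over 230.0 (a raw EB signal of 225.7) in at least 1 array; where the dimmer signal was under the floor, the ratio is given against the floor as "at least". The steps were tested on simulated data. Alternatives were no quantile step, the series value table, normexp background (limma 3.58.1 in R 4.3.3, offset 50), signals set to the floor, other detection rules, the mean over probes, a 1.5-fold limit and a limit of 2 bead-level standard errors.

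Members and lists were chosen with earlier results of these data known. Named are all members past 2-fold, the extremes and up to 4 more of each role, their paralogues, and other trafficking genes past 2-fold with up to 6 of the largest differences; members past 1.5-fold, those nearly level and those under the floor were named after their values were seen.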

Additional observations from a re-analysis of the deposited data

How the results depend on the processing

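No paired analysis was possible because ES and EB have 1 array each, and no array could be left out. The alternatives were those listed above, and all of them reuse the same 2 arrays. Arl5c was the 1 member lower past 2-fold without the quantile step, with normexp background, with signals set to the floor, with detection by score or median, with the mean over probes and with 2 bead-level standard errors. In these settings the share of all genes that were lower ran from 3.99% to 6.85%. Above the floor in both arrays 0 members were lower, since Arl5c was under the floor in EB, and 1 other trafficking gene was lower. Of all such genes 4.04% were lower. The series value table gave 5 members higher (Atg9a, Rab11a, Rab3il1, Rab8b and Snx19) and 5 lower (Arl5c, Atg2a, Exoc6, Rab6b and Sec24a). It also gave 4 other trafficking genes higher and 3 lower. The shares over all genes there were 13.6% higher and 12.1% lower. Normexp background gave 1 member higher, Rab3il1, where 5.48% of all genes were. The 1.5-fold limit gave 7 members higher and 4 lower, and 5 other trafficking genes higher and 2 lower. Of all genes 12.4% were higher and 12.0% lower by that limit. With the mean over probes 0 other trafficking genes were higher past 2-fold, where 3.19% of all genes were. Second probes of Sort1 and Arfgap2 gave smaller differences. The members' median stayed between 0.02 and 0.06. The sign of a member's difference changed in 6 of 94 without the quantile step and in 6 with the mean over probes, in 0 of those past 1.5-fold. The dim signal of probes near the floor limits what can be seen in them.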
